A study of Mus musculus with 4 samples.

Results

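The 8 genes Fcgr1, Fcgr2b, Fcgr3, Fcgr4, Fcer1g, Fcgrt, Syk and Tyrobp encode mouse receptors that bind or transport immunoglobulin G, and adaptors and a kinase of immune receptor signalling. They were chosen by gene symbol, all 8 have a row in the expression table, and the table holds 11111 genes in all. The values come from RNA sequencing of C57BL/6 bone marrow-derived macrophages, grown from wild-type marrow over 7 days with fresh medium on day 4. Cells received either a control morpholino (Ctrl MO, 2 libraries) or morpholinos against Regnase-1 (Reg1-MOs, 2 libraries) at 2 µM for 24 hours, and every library was then exposed to lipopolysaccharide (LPS) at 10 ng/ml for 4 hours. All groups thus share LPS and the delivery peptide Endoporter (6 µl/ml), and neither unstimulated nor untransfected macrophages were part of the comparison. Regnase-1, encoded by Zc3h12a, cuts mRNAs of inflammatory genes, and morpholinos are antisense oligomers that bind RNA. The labels give neither the age of the mice nor whether libraries came from separate mice or cultures, so the p-values reflect only how far these libraries spread, and that spread may be technical.

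Fcγ receptors bind the constant part of IgG and let a macrophage take up or respond to antibody-coated particles. Fcgr1, Fcgr3 and Fcgr4 encode activating receptors that depend on the common γ chain, Fcer1g, whose ITAM is phosphorylated by Src family kinases and then recruits the kinase Syk. Fcgr2b encodes the inhibitory receptor, whose ITIM recruits the phosphatase SHIP-1. Tyrobp encodes DAP12, a similar ITAM adaptor used by other myeloid receptors, and Fcgrt encodes the heavy chain of FcRn, which pairs with β2-microglobulin and rescues IgG from lysosomal breakdown.

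Fcgr2b and Fcgr3 share part of their coding sequence, and the stretch is printed because short reads from it that miss the differing base cannot be placed by sequence alone. It is 243 bases long and differs at 1 base, shown in capitals. In both genes it crosses from exon 3 into exon 4. On the minus strand of GRCm38 it covers chr1:170967980-170968081 and chr1:170966560-170966700 of Fcgr2b, and chr1:171057691-171057792 and chr1:171054053-171054193 of Fcgr3.
Fcgr2b: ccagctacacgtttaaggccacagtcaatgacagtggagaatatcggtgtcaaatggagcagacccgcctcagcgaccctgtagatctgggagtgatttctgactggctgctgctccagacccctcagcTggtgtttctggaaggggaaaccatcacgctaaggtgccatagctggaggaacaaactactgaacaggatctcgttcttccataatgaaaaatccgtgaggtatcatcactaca
Fcgr3: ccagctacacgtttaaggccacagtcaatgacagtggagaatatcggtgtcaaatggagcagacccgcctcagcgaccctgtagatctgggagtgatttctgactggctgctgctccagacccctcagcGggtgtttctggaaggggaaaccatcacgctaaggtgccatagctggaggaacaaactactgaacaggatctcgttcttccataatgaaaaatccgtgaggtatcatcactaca
The stretch makes up 6.86% of the 3544-base Fcgr2b transcript and 18.0% of the 1347-base Fcgr3 transcript. Of the 75-base windows in the annotated transcripts of each gene, 94 of 1733 in Fcgr3 (5.42%) also occur in Fcgr2b, and 156 of 5768 in Fcgr2b (2.70%) occur in any other gene. No 75-base window of the other 6 genes occurs in another gene. How the authors' counting treated such reads is not given in the sources used here, so the values of Fcgr2b and Fcgr3 are uncertain to that extent.

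The promoters of the activating receptors are shown for a purine-rich motif, GAGGAA, of the kind that the macrophage factor PU.1 binds. It was searched on both strands of the 250 bases before each RefSeq start (GRCm38.p6). On the strand of the gene it reads TTCCTC, which is in capitals below; each window is 90 bases long, at chr3:96293970-96294059 (minus strand) for Fcgr1, chr1:171059404-171059493 (minus strand) for the first of the listed starts of Fcgr3, and chr1:171018836-171018925 (plus strand) for Fcgr4.
Fcgr1: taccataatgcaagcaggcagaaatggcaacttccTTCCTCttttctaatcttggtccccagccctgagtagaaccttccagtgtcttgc
Fcgr3: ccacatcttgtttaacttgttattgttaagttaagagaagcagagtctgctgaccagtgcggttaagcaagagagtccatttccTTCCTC
Fcgr4: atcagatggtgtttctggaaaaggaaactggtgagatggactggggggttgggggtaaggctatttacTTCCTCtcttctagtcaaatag
The 3 activating receptors each had the motif in the 250 bases, and the second listed start of Syk also had it. It began 55 bases before the start in Fcgr1, 6 in this start of Fcgr3 and 22 in Fcgr4. The share of all promoters with the motif this close to the start was not computed. It was not found in the 250 bases of Fcgr2b, Fcer1g and Fcgrt, and 23.3% of all 32851 mouse promoters of this length contain it. Only this exact sequence was searched, so other purine-rich sites in those genes were not looked for. Of the 90 bases before the Fcgr2b start, 56 lie in annotated exon, against 0, 0 and 6 in the windows of Fcgr1, Fcgr3 and Fcgr4 above. The interferon-type motif TTCNNNGAA occurred in Fcgr1 alone among the members with an entry and in 7.02% of all promoters, and TGANNNNGC occurred in Fcer1g and Fcgrt and in 35.2% of all promoters. Of these 3 receptors, Fcgr3 and Fcgr4 passed the test of expression below and Fcgr1 did not.

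Expression was measured at between 24652918 and 25213695 reads in the table for 3 libraries and 23369753 reads for Reg1-MOs library 2, the shallowest. Zc3h12a, the targeted gene, had 3407 and 3572 reads in the Ctrl MO libraries and 7799 and 6753 in the Reg1-MOs libraries, and its log2 change was 1.10 (SE 0.07, adjusted p = 0.000401, limma). The transcript of the targeted gene was thus higher, not lower, in Reg1-MOs. The level of Regnase-1 protein is not part of these data, so a loss of Regnase-1 is not shown here. All 14 macrophage markers were tested, and their summed level was 22932 to 23151 RPM (reads scaled to the library total in the table) in Ctrl MO and 22794 to 23101 in Reg1-MOs, with 3 that rose (such as Cd68, 0.34) and 3 that fell (such as Itgam, -0.67, and Mrc1, -0.70). The macrophage marker Adgre1 (F4/80) changed by -0.18 (adjusted p = 0.105). Stromal markers moved with the groups: 9 of the 9 tested fell, with a median log2 change of -1.49, and their sum was 161 and 162 RPM in Ctrl MO against 66.4 and 72.3 in Reg1-MOs. Neutrophil markers (11 tested; sums 481, 529, 492 and 394 RPM in the order Ctrl MO 1 and 2, Reg1-MOs 1 and 2) and B cell markers (3 of 9 tested; 24.4, 24.4, 21.2 and 19.3) had no call. Of the natural killer and T cell list 2 of 11 were tested (sums 17.0, 17.5, 14.4 and 11) and Lck fell. Of the mast cell list Kit alone was tested (2.81, 2.82, 1.78 and 1.80) and fell. Epor alone of the erythroid list was tested (0.171 to 0.243) and had no call. None of the 8 listed dendritic cell markers was among the 11111 genes. The part of these other cells in the receptor values was not tested, and in bulk RNA fewer cells of a type and less RNA per cell cannot be told apart.

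Of the 8 genes, 4 fell in cells given Reg1-MOs, namely Fcgr3, Fcgrt, Fcgr4 and Fcgr2b, and none rose. The falls ran from 1.25-fold for Fcgr2b to 1.38-fold for Fcgr3. Fcgr1, Fcer1g, Syk and Tyrobp did not pass the test. The test was limma's moderated test over all genes with Benjamini-Hochberg adjustment and a threshold of 0.05, 2 libraries against 2. By this rule 6.03% of all genes fell, 6.22% rose and 12.2% did either. At an unadjusted p under 0.05 the members gave 0 rises and 4 falls, beside 1515 rises and 1748 falls of all 11111 genes. Every gene called after adjustment also passes that looser threshold. With voom weights the members gave 0 rises and 4 falls after adjustment, beside 705 rises and 699 falls of all genes. Without the mean-variance trend they gave 0 rises and 0 falls, beside 195 rises and 182 falls of all genes. The calls of Fcgr2b, Fcgr4 and Fcgrt also depended on single libraries, as given for each gene below. For 6 of the 8, both Reg1-MOs values lay below both Ctrl MO values, which held for 31.8% of all genes. The median log2 change was -0.25 over the 8 and -0.03 over all genes.

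**Figure D1:**
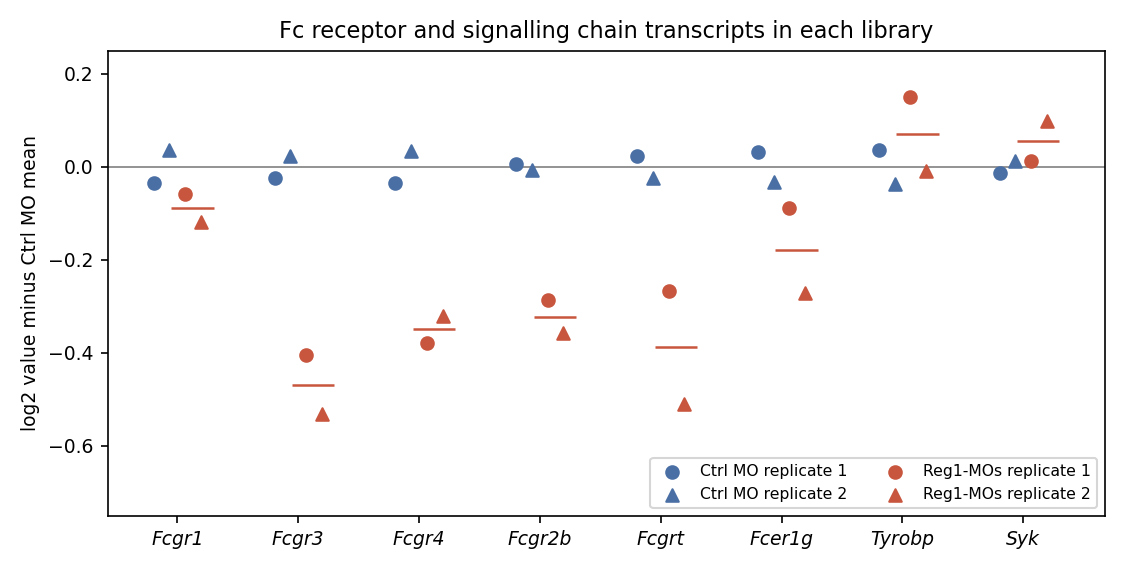
Deposited log2 value of each of the 8 genes in each of the 4 libraries, as the difference from the mean of the Ctrl MO libraries; points are libraries, short lines the Reg1-MOs means and the line at 0 the Ctrl MO mean. The Reg1-MOs points of Fcgr3, Fcgr4, Fcgr2b and Fcgrt lie below their Ctrl MO points, and those of Syk and Tyrobp overlap with theirs.

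Among the activating receptors, Fcgr3 moved most. Fcgr3 (FcγRIII; ENSMUSG00000059498, chr1:171051174-171064935, minus strand) had log2 values of 9.37 and 9.42 in the Ctrl MO libraries and 8.99 and 8.86 in the Reg1-MOs libraries, from 12647, 13044, 9858 and 8281 reads. Both Reg1-MOs libraries were low, and the second was the lower. The log2 change was -0.47 (SE 0.07, 95% interval -0.63 to -0.31, adjusted p = 0.00645), or 1.38-fold lower. Fcgr3 was the one member that passed with any 1 library left out, at adjusted p from 0.0156 to 0.0351; without the mean-variance trend in limma its adjusted p was 0.0744.

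Fcgr4 (FcγRIV; ENSMUSG00000059089, chr1:171018920-171029761, plus strand) encodes the receptor that binds IgG2a and IgG2b with intermediate affinity. Its log2 values were 8.33 and 8.40 in Ctrl MO and 7.99 and 8.05 in Reg1-MOs, from 6146, 6442, 4921 and 4694 reads. The pairs were close within each group and did not overlap. Fcgr4 fell by 0.35 on the log2 scale (SE 0.07, 95% interval -0.50 to -0.20, adjusted p = 0.0156), or 1.27-fold. The call was lost without Ctrl MO library 1 (adjusted p = 0.0813), Ctrl MO library 2 (0.207) or Reg1-MOs library 1 (0.0670), and without the variance trend (0.101).

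Fcgr1 (FcγRI, the high-affinity receptor; ENSMUSG00000015947, chr3:96282909-96293969, minus strand) is the activating receptor whose gene lies on another chromosome. It had log2 values of 9.71 and 9.78 in Ctrl MO and 9.69 and 9.63 in Reg1-MOs. The values of the groups lay next to each other, with Reg1-MOs slightly lower in the deposited scale and overlapping when scaled to equal totals. The log2 change was -0.09 (SE 0.06, adjusted p = 0.401), and its 95% interval, -0.24 to 0.06, excludes a fall as large as the point estimate of Fcgr4 or Fcgr3.

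The inhibitory receptor fell as well. Fcgr2b (FcγRIIB; ENSMUSG00000026656, chr1:170958617-170976547, minus strand) had log2 values of 9.89 and 9.88 in Ctrl MO and 9.60 and 9.53 in Reg1-MOs, from 18160, 17968, 15049 and 13135 reads. The Ctrl MO libraries were almost equal and both Reg1-MOs libraries were lower. The log2 change was -0.32 (SE 0.06, 95% interval -0.47 to -0.18, adjusted p = 0.0173), or 1.25-fold lower. This call was lost without Ctrl MO library 1 (adjusted p = 0.177), without Ctrl MO library 2 (0.174) and without the variance trend (0.109). An antisense gene, Gm38204, overlaps 155 bases of Fcgr2b exon; the strand setting of the counting is not given in the sources used here, so reads of the 2 genes in those bases may not have been told apart.

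Fcer1g, Syk and Tyrobp did not pass the test. Fcer1g (ENSMUSG00000058715, chr1:171229572-171234365, minus strand), the γ chain that the activating receptors need, had log2 values of 9.97 and 9.91 in Ctrl MO and 9.85 and 9.67 in Reg1-MOs. Both Reg1-MOs libraries were lower, and they differed from each other by more than the Ctrl MO libraries did. The log2 change was -0.18 (SE 0.08, adjusted p = 0.173), with a 95% interval from -0.36 to 0.0013.

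Syk (ENSMUSG00000021457, chr13:52583173-52648792, plus strand), the kinase recruited to the phosphorylated chain, had log2 values of 10.95 and 10.97 in Ctrl MO and 10.97 and 11.06 in Reg1-MOs. The log2 change was 0.06 (SE 0.06, 95% interval -0.09 to 0.21, adjusted p = 0.602). Tyrobp (ENSMUSG00000030579, chr7:30413760-30417585, plus strand), the DAP12 adaptor, had 9.13 and 9.05 in Ctrl MO and 9.24 and 9.08 in Reg1-MOs, a log2 change of 0.07 (SE 0.07, 95% interval -0.10 to 0.25, adjusted p = 0.565). The groups overlapped for both genes. The change of Tyrobp was -0.0077 without Reg1-MOs library 1.

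The transport receptor Fcgrt (FcRn heavy chain; ENSMUSG00000003420, chr7:45092990-45103851, minus strand) was also lower. Its log2 values were 7.29 and 7.25 in Ctrl MO and 7.00 and 6.76 in Reg1-MOs, from 2992, 2897, 2488 and 1927 reads. It fell by 0.39 on the log2 scale (SE 0.09, 95% interval -0.60 to -0.17, adjusted p = 0.0348), or 1.31-fold. The Reg1-MOs libraries were both lower but far apart: the log2 change was -0.51 without library 1 and -0.27 without library 2. The call was lost without Reg1-MOs library 2 (adjusted p = 0.0565), without either Ctrl MO library (0.126 and 0.0818) and without the variance trend (0.144).

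**Figure D2:**
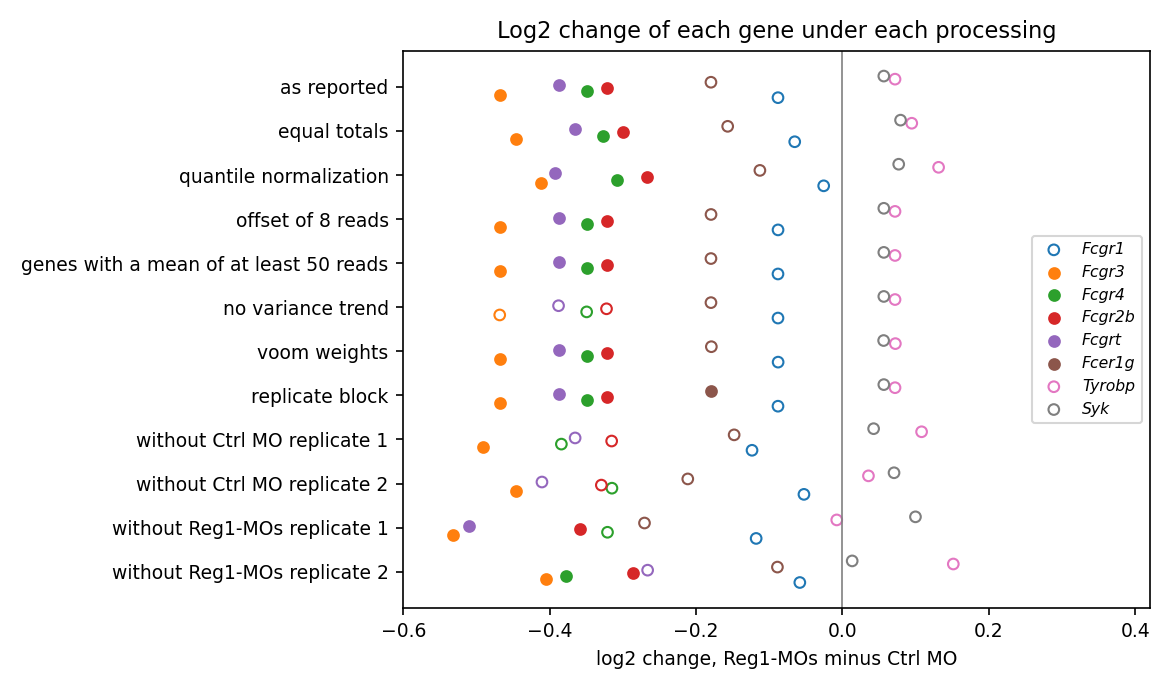
Log2 change of each of the 8 genes, Reg1-MOs minus Ctrl MO, under each processing; filled points passed limma's adjusted p threshold of 0.05 and open points did not. Fcgr3 is filled in all settings but the one without a variance trend, where no point is filled, and the points of Syk and Tyrobp stay near 0.

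Levels of different genes were compared as RPKM (mean ± SD, n = 2), computed from the recovered reads, the length of each gene's merged exons and the library's total in the table. In Ctrl MO cells the adaptors led: Fcer1g was at 855 ± 34.5 and Tyrobp at 622 ± 27.9. The receptors followed, with Fcgr3 at 295 ± 3.87, Fcgr1 at 252 ± 6.42 and Fcgr4 at 200 ± 4.90. Syk was at 162 ± 0.702, Fcgr2b at 125 ± 2.02 and Fcgrt at 55.9 ± 1.76. No neighbours in this order overlapped between libraries, and all 8 were at or above the 92.5th percentile of genes by this level. Per length of the longest transcript instead, Syk at 283 came above Fcgr1 at 252, and Fcgr2b at 203 came just above Fcgr4 at 200.

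In Reg1-MOs cells, per merged exons, Fcgr1 was at 241 ± 12.7 and Fcgr3 at 217 ± 18.5, so that the high-affinity receptor stood above Fcgr3 in both libraries, by 250 to 230 and by 232 to 204. This order depends on the length used: per longest transcript Fcgr3 stayed above Fcgr1 in Reg1-MOs as in Ctrl MO, at 280 against 241. Fcer1g was at 769 ± 86.4 and Tyrobp at 666 ± 67.5, and the ranges of these 2 adaptors overlapped. Syk at 171 ± 3.23 stood above Fcgr4 at 159 ± 0.702, and Fcgr2b at 101 ± 5.91 and Fcgrt at 43.6 ± 6.21 stayed lowest.

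**Figure D3:**
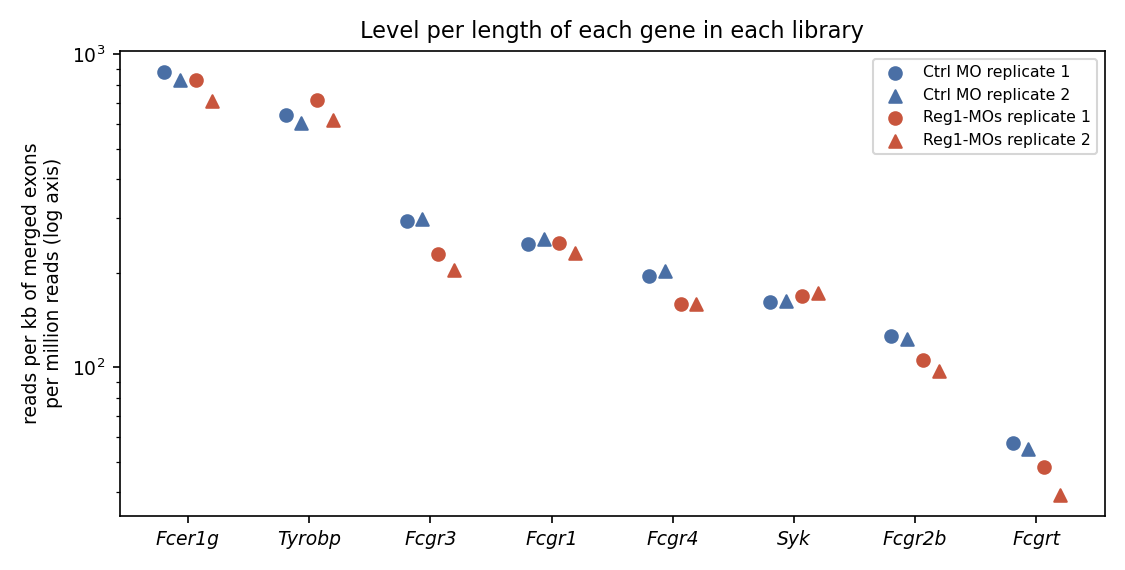
Level of each gene per length (RPKM on merged exons, log axis) in every library, in the order of the Ctrl MO means. Fcer1g and Tyrobp are the highest and Fcgrt the lowest in both groups, and on this length Fcgr3 lies below Fcgr1 in the Reg1-MOs libraries, which it does not per longest transcript (280 against 241).

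Ratios within a library do not depend on how libraries were scaled. With 2 libraries against 2 an exact two-sided permutation test cannot give p below 0.333, so these are descriptions. The proportion of activating to inhibitory receptors did not separate the groups: the sum of Fcgr1, Fcgr3 and Fcgr4 over Fcgr2b was 5.85 and 6.16 in Ctrl MO and 6.07 and 6.14 in Reg1-MOs, and the groups overlapped. Fcgr4 over Fcgr2b also overlapped, at 1.56 and 1.65 against 1.51 and 1.65. Fcgr3 over Fcgr2b was 2.32 and 2.42 against 2.18 and 2.10, lower in both Reg1-MOs libraries.

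Within the activating receptors, Fcgr1 took a larger share in both Reg1-MOs libraries. Fcgr1 over Fcgr3 was 0.847 and 0.862 in Ctrl MO and 1.09 and 1.14 in Reg1-MOs, and Fcgr1 over Fcgr4 was 1.26 and 1.26 against 1.58 and 1.45. The balance of the γ chain to DAP12 was lower: Fcer1g over Tyrobp was 1.37 and 1.38 in Ctrl MO and 1.16 and 1.15 in Reg1-MOs. Set against the receptors, the sum of the 3 activating receptors over Fcer1g was 0.838 and 0.913 in Ctrl MO and 0.770 and 0.842 in Reg1-MOs, with overlap. Fcgrt over its partner B2m was 0.0182 and 0.0179 in Ctrl MO and 0.0129 and 0.0107 in Reg1-MOs, the largest relative shift of the ratios computed here.

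Fcgr2b, Fcgr4 and Fcgr3 sit side by side within 106.319 kb of chromosome 1. Within 100000 bases of that block, 8 genes of the table were found, and the 3 that fell were the receptors. The neighbours Atf6 (-0.02, adjusted p = 0.914), Dusp12 (0.03, 0.893), Cfap126 (-0.04, 0.945) and Sdhc (0.10, 0.512) had no call. Fcrlb, an Fc receptor-like gene on the same side of the block as Fcgr2b, had 81, 93, 70 and 52 reads and a log2 change of -0.48 (SE 0.18, adjusted p = 0.126). Fcer1g lies on the same chromosome, 164.637 kb beyond the block.

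**Figure D4:**
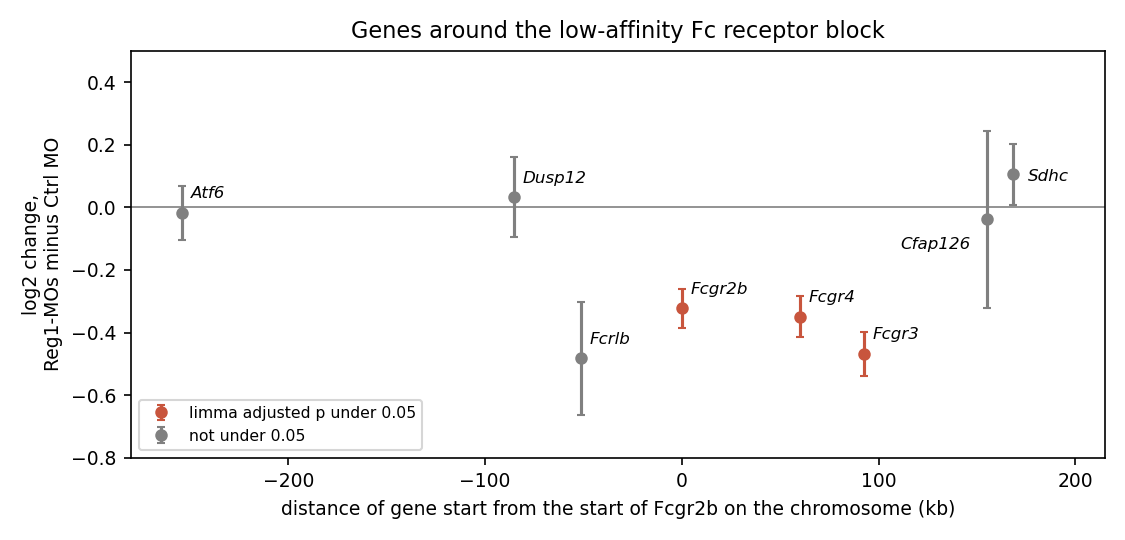
Log2 change (Reg1-MOs minus Ctrl MO, bars ± SE) of the genes of the table around the low-affinity Fc receptor block, by distance from Fcgr2b in kilobases. Distances are between the lowest chromosome coordinates of the genes, whatever their strand. The 3 receptors lie between -0.32 and -0.47, and the neighbours other than Fcrlb lie near 0.

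The genes whose 4 values most resembled those of Fcgr3, the member with the largest change, were Myc, Pofut1 and Dgka out of 9475 searched, at Euclidean distances of 0.0152, 0.0279 and 0.0401 on the centred log2 scale over the 4 libraries. Their log2 changes were -0.46, -0.45 and -0.44, close to that of Fcgr3 because the genes were picked by this likeness. Among the members, Fcgrt was the nearest to Fcgr3 at rank 113, followed by Fcgr2b at 187 and Fcgr4 at 270, whereas Fcer1g came at rank 1181 and Fcgr1 at 2403.

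Genes around the receptors are described next by lists, each beside the 691 rises, 670 falls and median of -0.03 over all 11111 genes. Of the called genes named from these lists, Fcrls, Cd300lb, Ezr, Fgr, Tec, Pld2, Inpp5d and Cd1d1 passed under every alternative; without the variance trend Treml4 and Ptpn22 also passed and the others did not. Of 14 other Fc receptors, 4 were tested: Fcrls, an Fc receptor-like gene of myeloid cells, fell by 0.92 (adjusted p = 0.00164), and none rose (0 also at an unadjusted p under 0.05 and with voom weights). Fcrls had log2 values of 6.09 and 6.09 in Ctrl MO and 5.27 and 5.08 in Reg1-MOs. Trim21, the cytosolic IgG receptor, changed by -0.11 and Fcrl1 by -0.22, both without a call, and the list's median was -0.35.

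Several receptors that use the same adaptors rose. Of 22 tested receptors that pair with Fcer1g or Tyrobp, 4 rose and none fell (1 at an unadjusted p under 0.05, 0 with voom weights), with a median of 0.15. With voom weights, with a mean of at least 50 reads and without the variance trend the rises numbered 2. Cd300lb, an activating receptor of the CD300 family, had log2 values of 3.19 and 3.17 in Ctrl MO and 4.19 and 4.00 in Reg1-MOs, a change of 0.91 (adjusted p = 0.00347). Clec4e (Mincle), which signals through Fcer1g, rose by 0.44 (adjusted p = 0.00935; 0.0553 without Ctrl MO library 2). Treml4 rose by 1.06 from only 13, 13, 26 and 28 reads (adjusted p = 0.0484) and Cd300ld by 0.26 (0.0492), and leaving out any 1 library ended both calls. Trem2, which uses DAP12, changed by 0.23 without a call (adjusted p = 0.132). The list kept 1 to 2 rises with 1 library left out.

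Among 8 tested other ITAM-linked receptors and adaptors, Ezr, which encodes the membrane linker ezrin, rose by 0.80 (adjusted p = 0.00121) and Clec7a (Dectin-1, a β-glucan receptor with its own Syk-binding motif) fell by 0.30 (0.0235; 0.159, 0.311 and 0.0694 without Ctrl MO library 1, Ctrl MO library 2 and Reg1-MOs library 1). The median was -0.02.

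Src family kinases that phosphorylate ITAMs were among the genes that fell. Of 13 tested kinases of the Src and Syk families and their regulators, 4 fell and 1 rose, with a median of -0.12. Fgr had log2 values of 5.12 and 5.26 in Ctrl MO and 4.35 and 4.33 in Reg1-MOs, a change of -0.85 (adjusted p = 0.00221). Lyn fell by 0.28 (0.0303), a call that ended without Ctrl MO library 1 (0.227), Ctrl MO library 2 (0.307) or Reg1-MOs library 1 (0.0808). Lck, a lymphoid kinase also counted above among T cell markers, fell by 0.60 (0.0284; 0.0571 without Reg1-MOs library 2). Ptpn22, a phosphatase that restrains these kinases, rose by 0.80 (0.00749; 0.0712 without Reg1-MOs library 1). With 1 library left out, the list had 2 to 3 falls.

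Downstream of Syk, 31 of 34 tested adaptors and enzymes had no call, among them Vav1 (0.12), Btk (-0.10) and Plcg2 (0.23), and the median was 0.01. Tec, a Tec family kinase, had log2 values of 4.07 and 3.98 in Ctrl MO and 4.97 and 5.20 in Reg1-MOs and rose by 1.06 (adjusted p = 0.00195). Pik3cd, the phosphoinositide 3-kinase δ subunit, fell by 0.33 (0.0154) and Pik3ap1, its adaptor BCAP, by 0.35 (0.0442). Both calls ended without Ctrl MO library 1 (0.105 and 0.0808), Ctrl MO library 2 (0.227 and 0.245) or Reg1-MOs library 1 (0.0602 and 0.121), and that of Pik3ap1 also with quantile normalization (0.0606). Leaving out Reg1-MOs library 1 or Ctrl MO library 2 left 0 falls in this list, without Ctrl MO library 1 there was 1, and without Reg1-MOs library 2 there were 4.

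Of 38 tested genes of the phagocytic actin machinery, 3 rose, 4 fell and 31 had no call, with a median of -0.04. Pld2, a phospholipase D, rose by 0.70 (adjusted p = 0.00205), Myo1f, a myosin of phagocytes, by 0.52 (0.00302) and Coro1a, which encodes coronin, by 0.38 (0.0224). The adaptor Crk fell by 0.38 (0.0165). Crk lost its call without Ctrl MO library 1 (0.0578), Ctrl MO library 2 (0.145) or Reg1-MOs library 1 (0.0677), and Coro1a without Ctrl MO library 2 (0.269), Reg1-MOs library 1 (0.101) or Reg1-MOs library 2 (0.0671). The falls numbered 0 without Ctrl MO library 2 or Reg1-MOs library 1, 1 without Ctrl MO library 1 and 8 without Reg1-MOs library 2, and the rises 2 to 3.

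Calls in the list of inhibitory receptors and phosphatases went both ways. Of its 30 tested genes, 5 rose, 2 fell and 23 had no call. The median was -0.07, on the other side of 0 from the larger number of calls. Inpp5d, which encodes the phosphatase SHIP-1 that binds the ITIM of Fcgr2b, had log2 values of 4.20 and 4.17 in Ctrl MO and 4.89 and 4.82 in Reg1-MOs. It rose by 0.67 (SE 0.09, adjusted p = 0.00452) and passed under every alternative, while Fcgr2b fell. Dok1, another adaptor of inhibitory signalling, rose by 0.51 (0.00493), Cd200r1 by 0.58 (0.0103), Cd300c2 by 0.44 (0.0145) and Lilr4b by 0.30 (0.0289). Cd300c2 and Lilr4b (gp49A) are relatives of inhibitory receptors rather than known inhibitors, and their rises are not read as inhibitory. Cd33 fell by 0.90 (0.0181) and Pilra by 0.29 (0.0282), and Ptpn6, which encodes SHP-1, changed by -0.05 without a call. Calls were lost without Ctrl MO library 1 for Lilr4b (0.247) and Pilra (0.236), without Ctrl MO library 2 for Cd300c2 (0.0574), Lilr4b (0.190), Cd33 (0.0596) and Pilra (0.286), without Reg1-MOs library 1 for Cd200r1 (0.0787), Cd300c2 (0.0547), Cd33 (0.128) and Pilra (0.0603), and without Reg1-MOs library 2 for Lilr4b (0.0542) and Cd33 (0.0755). The falls numbered 0 without Ctrl MO library 2 or Reg1-MOs library 1 and 2 without either of the other libraries.

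The list of class I-like relatives and partners of FcRn had calls in 2 genes. This list also holds Hpn, a gene of neither kind. Of the 5 tested genes of the list 2 rose and none fell (0 at an unadjusted p under 0.05 and with voom weights), with a median of 0.23. Cd1d1, which presents lipids, had log2 values of 2.23 and 2.04 in Ctrl MO and 3.32 and 3.59 in Reg1-MOs, a change of 1.32 (adjusted p = 0.00261). Mr1, which presents vitamin B metabolites, rose by 0.66 (0.0201; 0.0743, 0.0787 and 0.0723 without Ctrl MO library 1, Reg1-MOs library 1 and Reg1-MOs library 2). B2m, the light chain that Fcgrt shares with them, changed by 0.23 without a call (0.0519; 0.0308 with equal totals).

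Interferon γ raises Fcgr1 in macrophages, and genes of that response were listed for this reason, together with its receptor chains and their kinases. Of 19 tested, 6 fell and none rose (2 at an unadjusted p under 0.05, 0 with voom weights), with a median of -0.15. Cxcl9, a chemokine induced by interferon γ, had log2 values of 8.68 and 8.71 in Ctrl MO and 7.85 and 8.18 in Reg1-MOs, a change of -0.67 (adjusted p = 0.00795). Jak1, a kinase of the receptor, fell by 0.44 (0.00894; 0.0740 and 0.0582 without Ctrl MO library 2 and Reg1-MOs library 1), and the transcription factor Irf8 fell by 0.31 (0.0265; 0.218, 0.171 and 0.0796 without Ctrl MO library 1, Ctrl MO library 2 and Reg1-MOs library 1). With 1 library left out, the list had 1 to 7 falls and at most 1 rise: 1 fall without Ctrl MO library 2 or Reg1-MOs library 1, 2 without Ctrl MO library 1 and 7 without Reg1-MOs library 2.

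**Figure D5:**
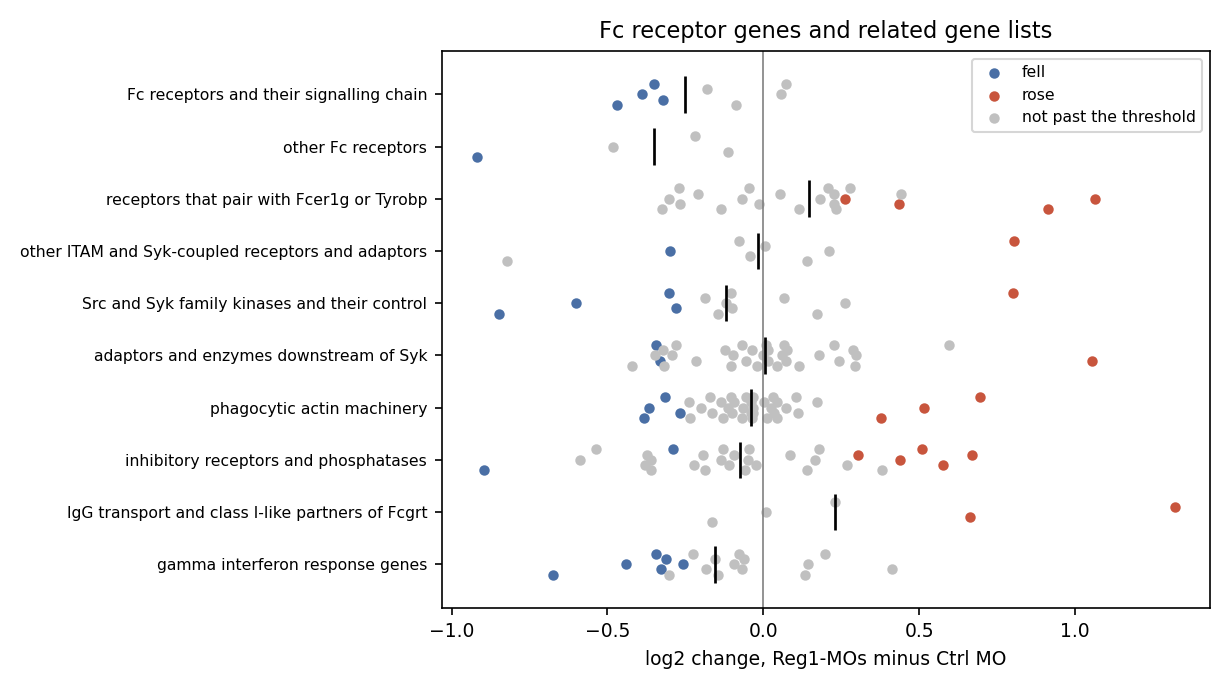
Log2 change (Reg1-MOs minus Ctrl MO) of each tested gene of the Fc receptor set and of 9 related lists; colours give the call by limma at an adjusted p of 0.05 and vertical bars are medians. The Fc receptor set has 4 falls and no rise among 8 genes. The receptors that pair with Fcer1g or Tyrobp have 4 rises and no fall among 22. Over all 11111 genes there were 691 rises and 670 falls. Without the variance trend the set had 0 falls and the pairing receptors 2 rises.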

How the data were processed

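RNA sequencing covered 2 Ctrl MO and 2 Reg1-MOs libraries. Per the labels' protocols, libraries were made with a NEBNext Ultra II Directional kit and sequenced on an Illumina NextSeq. The submitters' processing notes name mm10, HISAT2 1.6.3, cutadapt and FastQC. Not given in the sources used here were the normalization, the filter on genes and the read counter with its strand setting. The authors deposited log2 values for 11111 genes (6 without a symbol). They equal log2 of the sum of reads and 0.5, after multiplication by a constant per library: 100% of values gave whole reads within 0.01, which were used for read counts and levels per length. MO1 and MO2 head the Reg1-MOs columns and also name the targeting morpholinos in the labels, and whether each library received both is not settled; they were treated as replicates, as their titles number them.

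The main test was limma 3.58.1 (R 4.3.3) with a mean-variance trend, two-sided, on the deposited values of every gene, with no term but group, 2 residual and 5.47 prior degrees of freedom, and Benjamini-Hochberg adjustment over all genes. It was tested on simulated data. Gene models and lengths came from GENCODE M21 (11088 of 11090 identifiers found) and promoters from RefSeq, which had an entry for 7 of the 8 members. The members and the lists were chosen with earlier results of these data known. Named genes were the members, Zc3h12a, the genes around the receptor block, the 3 genes most like Fcgr3, and per list the 2 smallest p plus called genes with a log2 change of at least 0.5 in size (38 genes); 22 further genes were chosen after their values were seen. For the kinase list, values of 1 called gene are not reported here. Alternatives were equal totals, quantile normalization, an offset of 8 reads, a mean of at least 50 reads, no variance trend, voom weights, the replicate block, each library left out and the longest transcript.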

Additional observations from a re-analysis of the deposited data

How the results depend on the processing

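Over the 11 alternatives, 74 of the values of the 8 genes kept their direction and side of the threshold, 12 lost the call (all in Fcgr2b, Fcgr3, Fcgr4 and Fcgrt), 1 gained it (Fcer1g) and 1 changed sign. Without the variance trend 0 members fell by limma, and 195 genes rose and 182 fell in all. At an unadjusted p under 0.05 this setting gave 4 falls among the members and 1447 among all 11111 genes. Leaving out 1 library gave 1 to 3 members that fell, 249 to 530 genes that rose and 258 to 860 that fell; with a Reg1-MOs or Ctrl MO library left out the lone sample is assumed to vary like the other group. Equal totals, quantile normalization, the larger offset, the read minimum and voom weights each left 4 members that fell. With the replicate number as a block, 1532 genes rose and 1891 fell and 5 members fell, with Fcer1g now past the threshold (adjusted p = 0.0145), as were Trem2 (0.00134), Plcg2 (0.00584), Adgre1 (0.0208) and Fcrlb (0.0472); the receptors that pair with Fcer1g or Tyrobp then had 8 rises and 1 fall, and the inhibitory list 8 and 8; same-numbered libraries deviated together (r = 0.314 over 9476 genes), but the labels do not say that the numbers pair samples, so this is a hint from the data. Changes that reversed were small: with 1 library left out Tyrobp ranged from -0.0077 to 0.152, Sdhc from -0.0184 to 0.228, Dusp12 from -0.0490 to 0.113, Atf6 from -0.108 to 0.0714 and Cfap126 from -0.179 to 0.102. Atf6 was 0.0047 with equal totals and Cfap126 0.0606 with quantile normalization. The cause was not tested. The median of all genes moved from -0.03 to -0.003 with equal totals. Members had at least 1927 reads in each library, and with 2 libraries a group the spread rests on few values. Some other named genes had few reads: Treml4, Cfap126 and Fcrlb rest on under 100 per library, and Fcrl1 had a mean under 50.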
